A study of Mus musculus with 13 samples.

Results

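The metabotropic glutamate receptor (mGluR) genes described here are Grm2, Grm3, Grm4, Grm5, Grm7 and Grm8. They were chosen by symbol and make up 6 of the 55291 gene symbols counted in every library, of which 48746 had at least 1 count in some library. The 13 libraries each came from the CA1 region of a single organotypic entorhino-hippocampal tissue culture of wildtype C57BL/6 mice, prepared at postnatal day 4 to 5 and matured over 18 days or more in vitro. The groups were 5 non-lesioned controls, 4 cultures after Schaffer collateral lesion (SCL), which cuts the axons from CA3 to CA1, and 4 after entorhinal cortex lesion (ECL), which cuts the entorhinal input to the distal dendrites. The CA1 region was cut out by scalpel 3 days after the lesion, so each library holds RNA from every cell type in that piece, cultures carry both sexes, and scar tissue was left behind. The tissue labels name CA1, while the extraction text names the dentate gyrus, and the growth text also names Thy1-eGFP-M animals.

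mGluRs are G protein-coupled receptors that sense glutamate and adjust synaptic strength more slowly than the ion channel receptors. Group I receptors, of which Grm5 encodes mGluR5, couple to Gq and phospholipase C and sit mostly at the edge of the postsynaptic density of pyramidal neurons. Group II (Grm2, Grm3) and group III (Grm4, Grm7, Grm8) receptors couple to Gi/o, lower cyclic AMP, and mostly act on presynaptic terminals, and Grm3 is also a receptor of astrocytes.

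Library totals were 14371152 to 21092612 counts in controls, 16405517 to 56786613 in SCL and 20210165 to 46449937 in ECL cultures. The 9 markers of pyramidal neurons, among them Wfs1 and Pou3f1 of CA1, summed to 674 to 1160 CPM (counts of a gene per 1000000 scaled counts) in controls, 726 to 855 after SCL and 749 to 1300 after ECL. Of these 9, 1 was called lower after SCL (median log2 fold change -0.164) and 0 were called after ECL (median 0.151). The 4 markers of dentate granule cells, Prox1, Dsp, C1ql2 and Dock10, summed to 41.3 to 57.5 CPM over all libraries. Dsp and C1ql2 each stayed under 1 CPM, so nearly all of that sum came from Prox1 and Dock10. Summed microglial markers were higher in every lesioned library, at 319 to 365 CPM in controls, 649 to 1070 after SCL and 627 to 832 after ECL. Of these 8 markers, 8 were called higher after SCL and 4 after ECL. Summed astrocyte markers overlapped between groups, at 8450 to 14000 CPM in controls, 10300 to 14100 in SCL and 9390 to 12400 in ECL libraries. Of these 9 markers, 5 were called higher after SCL, and for ECL 4 were called higher and 1 lower. Of 8 interneuron markers, SCL gave 1 call in each direction, while ECL gave 1 upward and 2 downward calls. Of 10 oligodendrocyte markers, 2 were called higher after each lesion, and the 1 endothelial marker tested of 4 was called lower after both. CA3 markers summed to 29.9 to 127 CPM over all libraries, with none of the 2 tested called. Over all genes tested, 24.9% of 11438 were called after SCL (1504 higher, 1344 lower) and 27.8% of 11212 after ECL (1708 higher, 1406 lower). The part of these other cell types in the mGluR results was not tested, and in bulk tissue fewer cells of a type and less RNA per cell cannot be told apart.

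The genes are spread over 5 chromosomes of GRCm38, with Grm7 and Grm8 on the same chromosome. The gene of Grm5 lies at chr7:87584168-88134907 on the plus strand, that of Grm3 at chr5:9485541-9725170 on the minus strand, and that of Grm7 at chr6:110645581-111567230 on the plus strand. Grm8 lies at chr6:27275119-28135178, Grm4 at chr17:27422387-27521403 and Grm2 at chr9:106643095-106656082, all on the minus strand. All are protein coding. In each of the 6 genes 100.0% of the 100-base stretches, read in the sense direction, were absent from annotated transcripts of other genes. Counts were therefore not split between receptors. Reads were counted without strand. An antisense gene shares 9.60% of the exon bases of Grm2 and 2.21% of those of Grm7, and a microRNA, Mir592, lies in 0.97% of those of Grm8.

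Promoters are shown for Grm3 and Grm7, which were lower after SCL, and for Grm8, which was lower after ECL. Each line gives the 250 bases before an annotated start from RefSeq (GRCm38.p6), read on the strand of the gene, with the GC box GGGCGG, the letters bound by Sp-family factors, in capitals. The window of Grm3 is chr5:9725353-9725602 (minus strand), that of Grm7 is chr6:110645262-110645511 (plus strand) and that of Grm8 is chr6:28135147-28135396 (minus strand).
Grm3: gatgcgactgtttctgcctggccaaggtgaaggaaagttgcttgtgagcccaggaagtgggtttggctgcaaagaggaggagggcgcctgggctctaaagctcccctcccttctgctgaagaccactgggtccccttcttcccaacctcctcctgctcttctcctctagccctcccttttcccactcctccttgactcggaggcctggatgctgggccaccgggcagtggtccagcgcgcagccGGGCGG
Grm7: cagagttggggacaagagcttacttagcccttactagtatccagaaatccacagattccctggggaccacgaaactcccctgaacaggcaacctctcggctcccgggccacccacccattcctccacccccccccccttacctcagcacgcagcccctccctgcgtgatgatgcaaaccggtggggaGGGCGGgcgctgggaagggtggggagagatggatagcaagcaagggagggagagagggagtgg
Grm8: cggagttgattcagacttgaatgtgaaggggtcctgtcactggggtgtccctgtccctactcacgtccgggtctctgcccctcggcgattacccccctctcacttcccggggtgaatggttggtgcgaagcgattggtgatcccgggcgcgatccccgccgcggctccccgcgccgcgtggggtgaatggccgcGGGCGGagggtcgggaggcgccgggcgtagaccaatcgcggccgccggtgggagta
Each of these windows held 1 GC box, and the window of Grm2 held 3, searched on both strands. Grm7 has a second annotated start, whose window overlaps the one shown and holds the same GC box. Grm8 has 2 further starts, and their windows held 0 GC boxes, with 1 match to TGACG, the core of the cyclic AMP response element, held by 17.8% of windows, in 1 of them. Of 32851 such windows in the genome, 32.7% held at least 1 GC box. No match to the EGR motif GCGTGGGCG, held by 0.536% of windows, the cyclic AMP response element TGACGTCA, held by 1.55%, or the TATA box TATAAA, held by 12.4%, was present in the 3 windows shown. These letters are shared widely and no binding was measured here.

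Per length, Grm5 was the most abundant of the 6 genes in every library (the plot of levels per kilobase of exon). Its level in controls was 45.5 ± 5.55 CPM per kilobase of exon (mean ± SD, n = 5), followed by Grm3 at 17.5 ± 3.38 and Grm7 at 5.10 ± 1.38. Each of these stood clear of the next in all 5 controls, by 2.60-fold between Grm5 and Grm3, 3.44-fold between Grm3 and Grm7 and 8.85-fold between Grm7 and Grm8. The lower end of the order was not resolved on this scale. Grm8 was at 0.576 ± 0.130 CPM per kilobase, Grm4 at 0.428 ± 0.264 and Grm2 at 0.169 ± 0.176. Grm8 exceeded Grm4 in 3 of 5 controls, and the ranges of Grm4 and Grm2 overlapped, although Grm4 was the higher in 5 of 5. After SCL the order was the same, and after ECL the mean of Grm4 was 2.25-fold above that of Grm8, with 3 of 4 libraries on that side and overlapping ranges. Per kilobase of the longest transcript, Grm8 was at 1.19 and Grm4 at 0.555 in controls, and at 0.464 and 0.658 after ECL. In CPM without a length, Grm8 at 4.32 to 7.20 stood above Grm4 at 0.546 to 4.19 in controls.

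**Figure D1:**
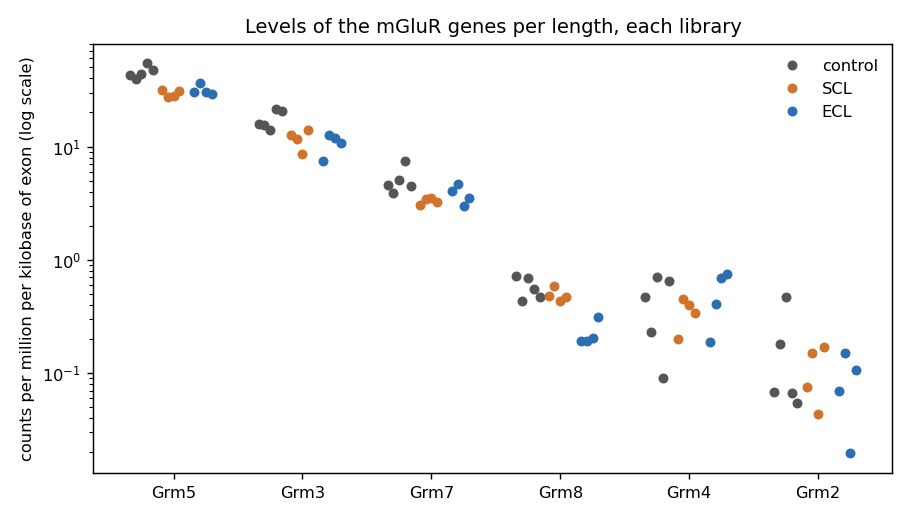
Levels of the mGluR genes in every library, in CPM per kilobase of exon on a log scale, with controls in gray, SCL in orange and ECL in blue. Grm5, Grm3 and Grm7 form separate bands in each group, while Grm8, Grm4 and Grm2 overlap at the bottom of the plot.

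To ask whether CA1 denervation moves these genes, each lesion was compared with the same 5 controls in edgeR's quasi-likelihood test, with p-values adjusted over all genes tested. Since both comparisons share these controls, their values are set side by side. The tests took genes whose mean normalized count reached 150, as did Grm3, Grm5 and Grm7. Grm2, Grm4 and Grm8 did not, and their tests come from fits with a minimum of 10.

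After SCL, Grm3, Grm5 and Grm7 were called lower and none of the members was called higher, where 24.9% of all 11438 genes tested were called, 11.8% lower. The median log2 fold change of the 3 members was -0.61, beside 0.01 over all genes tested. After ECL, Grm3 and Grm5 were called lower, where 27.8% of 11212 genes were called, 12.5% lower, and the median of the 3 members was -0.52 beside -0.01. Between ECL and SCL no member was called, as no gene was called by edgeR among 12232 tested, although 897 genes had an unadjusted p under 0.05 and DESeq2 called 71. With the minimum of 10, Grm5 alone was called lower after SCL in a fit in which 16.7% of 21705 genes were called, 7.49% lower. With the same minimum Grm3, Grm5 and Grm8 were called lower after ECL in a fit in which 22.9% of 21159 genes were called, 11.5% lower, and the median log2 fold change of all 6 members was -0.54 beside -0.02. Scaling over all symbols moved the median of all genes tested to 0.213 after SCL and 0.182 after ECL, and the calls of Grm3 and Grm7 after SCL and of Grm5 after ECL were then lost. With no filter on low counts no member was called after SCL, and 1, Grm8, was called after ECL.

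**Figure D2:**
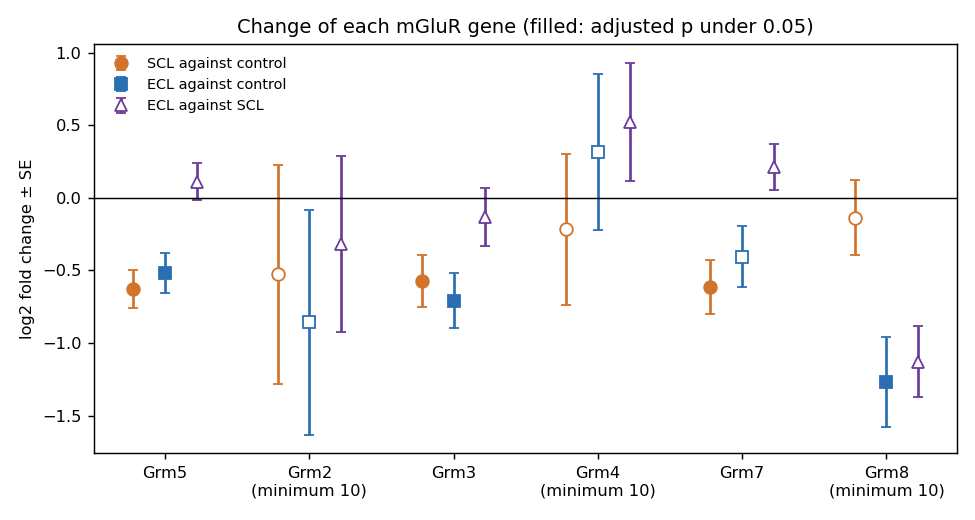
Log2 fold change of each mGluR gene with its standard error, for SCL against control (orange circles), ECL against control (blue squares) and ECL against SCL (purple triangles). Filled symbols passed an adjusted p of 0.05, which were Grm5 and Grm3 after both lesions, Grm7 after SCL and Grm8 after ECL.

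Grm5, the group I receptor that drives phospholipase C in pyramidal neurons and is needed for a form of long-term depression, fell after both lesions. Controls measured 436, 405.5, 452, 555 and 484 CPM. The SCL libraries measured 321, 281, 285 and 320 CPM, and the ECL libraries 314, 370, 313 and 299 CPM. Every lesioned library was below every control. Groups without overlap and lower in the lesion were found for 11.5% of genes after SCL and 12.2% after ECL, or 9.64% and 12.5% with the minimum of 10. The means were 467 ± 56.9 CPM (SD, n = 5) in controls, 302 ± 21.4 (n = 4) in SCL and 324 ± 31.3 (n = 4) in ECL libraries. On the log2 scale Grm5 fell by 0.63 after SCL (SE 0.131, adjusted p = 0.00612, edgeR), which is 35.3% lower, and by 0.52 after ECL (SE 0.138, adjusted p = 0.0133), which is 30.2% lower. ECL minus SCL was 0.11 (SE 0.128, adjusted p = 0.892). The fall after SCL held without any single library, while the fall after ECL lost its call without ECL 4 (-0.48, adjusted p = 0.0547).

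Grm3, a group II receptor of astrocytes and presynaptic terminals, was also lower after both lesions. Controls measured 48.6, 47.2, 42.6, 65.9 and 63.0 CPM. The SCL libraries measured 38.7, 35.4, 26.3 and 43.1 CPM and the ECL libraries 22.9, 38.3, 36.4 and 32.7 CPM. All ECL libraries were below all controls, while the highest SCL library overlapped the lowest control. Grm3 fell by 0.71 on the log2 scale after ECL (SE 0.189, adjusted p = 0.0137) and by 0.57 after SCL (SE 0.181, adjusted p = 0.0352). In percent these are falls of 38.8 and 32.8. ECL minus SCL was -0.13 (SE 0.199, adjusted p = 0.928). After ECL the call held without any single library. After SCL it was lost without SCL 1, SCL 2, SCL 3, control 4 or control 5, with adjusted p-values between 0.0552 and 0.110.

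Grm7, the group III receptor of low glutamate affinity at the presynaptic active zone, was called lower after SCL and was not called after ECL. Controls measured 26.9, 23.0, 29.7, 43.9 and 26.5 CPM. The SCL libraries lay close together at 18.1, 20.4, 20.7 and 19.1 CPM, all below all controls, and the ECL libraries measured 23.8, 27.6, 17.7 and 20.9 CPM. Of these 4, 2 lay below every control and 2 overlapped the low end of the controls. The log2 fold change was -0.61 after SCL (SE 0.188, adjusted p = 0.0316) and -0.41 after ECL (SE 0.209, adjusted p = 0.163). The lesions were not shown to differ, since ECL minus SCL was 0.21 (SE 0.158, adjusted p = 0.815). The SCL call was marginal. It was lost without any of the 4 SCL libraries (adjusted p between 0.0624 and 0.0757) or without control 3 (adjusted p = 0.0512).

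**Figure D3:**
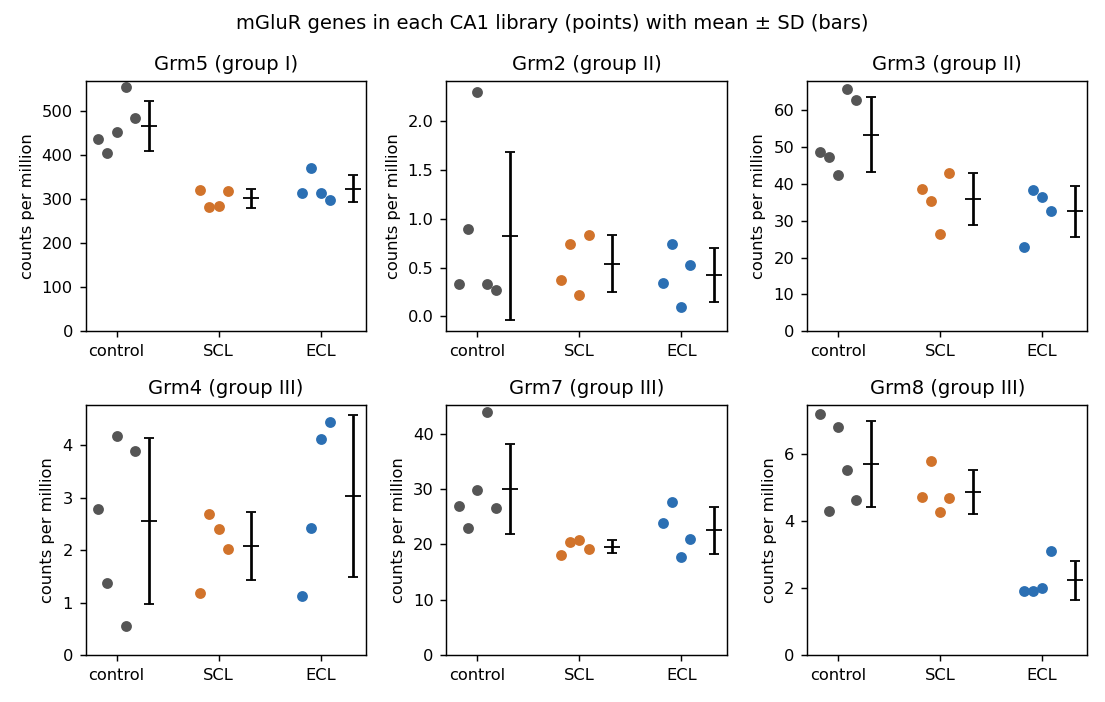
CPM of each mGluR gene in each library (points), with mean ± SD per group (bars), with a panel and a linear axis for each gene. Grm5 lies lower in all 8 lesioned libraries, Grm7 lies in a narrow low band after SCL, and Grm8 is low in the 4 ECL libraries.

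Grm8, another group III presynaptic receptor, showed a different pattern. Controls measured 7.20, 4.32, 6.83, 5.52 and 4.64 CPM, from 129, 82, 101, 101 and 69 counts. The SCL libraries measured 4.72, 5.81, 4.27 and 4.69 CPM, and the ECL libraries 1.90, 1.91, 2.01 and 3.09 CPM, from 84, 44, 42 and 71 counts. Every ECL library was below every control and every SCL library, and the SCL libraries overlapped the controls. Such groups with ECL lower occurred, with the minimum of 10, for 12.5% of genes against controls and 2.29% against SCL. Grm8 fell by 1.27 on the log2 scale after ECL (SE 0.308, adjusted p = 0.00869), or by 58.5%. After SCL its log2 fold change was -0.14 (SE 0.258, adjusted p = 0.749).

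The direct difference of Grm8, ECL minus SCL, was -1.13 (SE 0.245), with an unadjusted p of 0.00056 from edgeR. It did not pass the adjustment over 20653 genes (adjusted p = 0.416), so an effect of ECL apart from SCL was not established. DESeq2 with the same minimum gave an adjusted p of 0.00726 for it, and edgeR with no filter 0.0465. The fall after ECL kept its call without any single library (adjusted p between 0.00879 and 0.0334), and it was -0.85 with an adjusted p of 0.0503 in a fit with a length and GC offset.

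Ratios between receptors within a library do not depend on scaling. Per 100 counts of Grm7, libraries held 12.6 to 26.8 counts of Grm8 in controls, 20.6 to 28.5 after SCL and 6.92 to 14.8 after ECL. Per 1000 counts of Grm5 they held 9.57 to 16.5 counts of Grm8 in controls, 14.7 to 20.7 after SCL and 5.17 to 10.3 after ECL. The ECL ratios lay below all SCL ratios on both scales and overlapped the control ratios in part. Grm3 and Grm7 kept close to Grm5, at 9.41 to 13 and 5.46 to 7.91 counts per 100 counts of Grm5 in controls, 9.24 to 13.5 and 5.64 to 7.27 after SCL, and 7.29 to 11.6 and 5.66 to 7.59 after ECL.

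Grm4 and Grm2 were near the limit of what these depths measure. Grm4, a group III receptor best known from the cerebellum and basal ganglia, had between 10 and 157 counts per library and averaged 2.56 ± 1.58 CPM (SD, n = 5) in controls, 2.08 ± 0.655 (n = 4) in SCL and 3.03 ± 1.55 (n = 4) in ECL libraries. The log2 fold changes were -0.22 after SCL (SE 0.521, adjusted p = 0.804) and 0.32 after ECL (SE 0.538, adjusted p = 0.719). Grm2, the group II receptor of presynaptic terminals, had between 2 and 43 counts and measured 0.825 ± 0.862 CPM in controls, 0.539 ± 0.294 after SCL and 0.424 ± 0.273 after ECL. Control 3 alone stood at 2.30 CPM, above the other 12 libraries, which lay at or under 0.895 CPM. Log2 fold changes were -0.53 after SCL (SE 0.755, adjusted p = 0.659) and -0.86 after ECL (SE 0.776, adjusted p = 0.467). With such errors neither gene could show a change of the size seen in Grm5.

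The partners of group I receptors moved in both directions. Of the Gq and phospholipase C list, 1 of 10 genes tested rose and 3 fell after SCL. After ECL 2 of 11 rose and 4 fell. The median log2 fold changes were -0.28 and -0.14. Over all genes tested, 24.9% were called after SCL and 27.8% after ECL. Gnaq, the alpha subunit of Gq, fell by 0.42 after SCL (SE 0.144, adjusted p = 0.0477) and by 0.45 after ECL (SE 0.152, adjusted p = 0.0404). Plcb1, the phospholipase C isoform that mGluR5 drives in hippocampus, fell by 0.41 (adjusted p = 0.0327) and 0.43 (adjusted p = 0.0357). With the minimum of 10 these calls were lost, for Gnaq (adjusted p = 0.105 after SCL and 0.0895 after ECL) and for Plcb1 (0.110 and 0.109). Plcb4, another phospholipase C, fell by 0.74 (adjusted p = 0.00978) and 0.78 (adjusted p = 0.00991), and Plcb3 fell after ECL by 0.83 (adjusted p = 0.0164). In the other direction, Dagla, which makes the endocannabinoid released by group I receptors, rose after ECL by 0.83 (adjusted p = 0.0451). The inositol trisphosphate receptor Itpr1 was at -0.32 and -0.28 and was not called (adjusted p = 0.223 and 0.245).

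**Figure D4:**
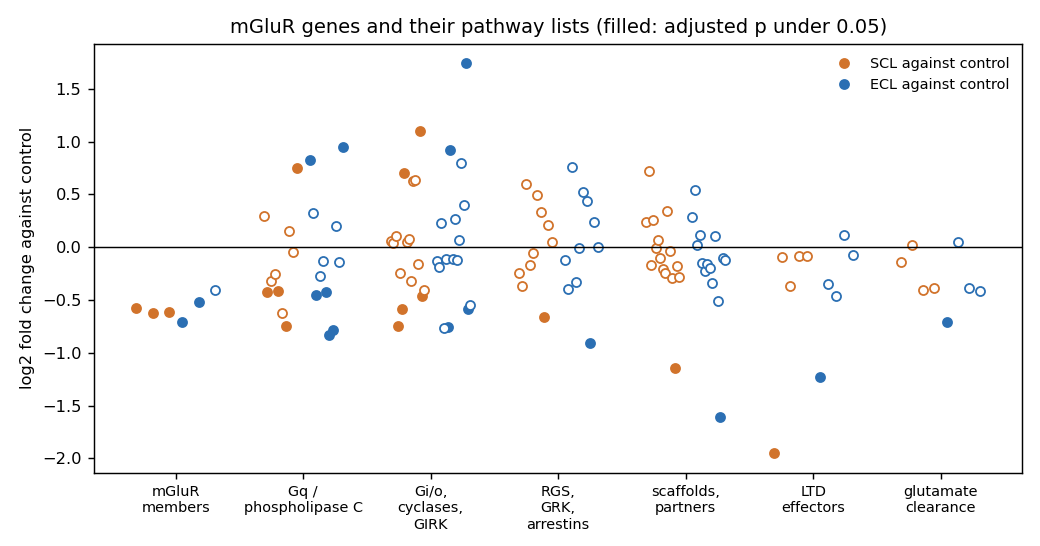
Log2 fold change against control for Grm3, Grm5 and Grm7 and for the genes tested in 6 pathway lists, with SCL in orange and ECL in blue, and filled points past an adjusted p of 0.05. The members lie between -0.71 and -0.41, while the Gq and Gi/o lists hold called genes on both sides of 0.

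For the Gi/o list that serves group II and III receptors, 2 of 16 genes tested rose and 3 fell after SCL. After ECL 2 rose and 2 fell. These counts stand beside 24.9% of all genes tested called after SCL and 27.8% after ECL. The neuronal G protein gamma subunit Gng3 rose by 1.10 after SCL (SE 0.255, adjusted p = 0.00952) and by 1.74 after ECL (SE 0.147, adjusted p = 2.18e-05). Of the inhibitory alpha subunits, Gnai2, which is abundant in immune cells, rose by 0.70 (adjusted p = 0.0228) and 0.92 (adjusted p = 0.00488), while Gnai1 fell by 0.59 (adjusted p = 0.0430) and 0.76 (adjusted p = 0.00799). Gnao1, the main Go subunit of neurons, was at 0.08 and 0.27 and was not called. Kcnj3, a subunit of the potassium channel opened by Gi/o receptors, fell by 0.46 (adjusted p = 0.0263) and 0.58 (adjusted p = 0.0150). Adcy8, a calcium-stimulated adenylyl cyclase, fell after SCL by 0.75 (adjusted p = 0.0289) and was at -0.77 after ECL, where it was not called (adjusted p = 0.0527). With the minimum of 10 the SCL calls of Gnai1 (adjusted p = 0.0976), Kcnj3 (0.0813) and Adcy8 (0.0616) were lost.

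Scaffolds and regulators gave few calls, beside 24.9% of all genes tested called after SCL and 27.8% after ECL. Of the scaffolds and binding partners, 1 of 15 genes tested after SCL and 1 of 14 after ECL was called, in both cases Shank1, a scaffold of the postsynaptic density. It fell by 1.14 (SE 0.218, adjusted p = 0.00438) and by 1.61 (SE 0.264, adjusted p = 0.000856). The Homer proteins tether group I receptors to their effectors, and Homer1 was at -0.21 (adjusted p = 0.388) and -0.19 (adjusted p = 0.439), Homer2 at -0.25 (adjusted p = 0.329) and -0.34 (adjusted p = 0.199), and Homer3 at 0.34 after SCL (adjusted p = 0.290). Pick1, a ligand of the tail of mGluR7, was at -0.29 (adjusted p = 0.479) and -0.51 (adjusted p = 0.195), and Ncdn, a partner of mGluR5, at -0.04 (adjusted p = 0.883) and 0.10 (adjusted p = 0.732).

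Elfn1 and Elfn2 are postsynaptic proteins that bind group III receptors across the cleft. Elfn1 averaged 5.04 ± 0.729 CPM (SD, n = 5) in controls, 2.75 ± 0.397 (n = 4) in SCL and 2.13 ± 0.736 (n = 4) in ECL libraries, and every lesioned library was below every control. It was under the minimum of 150, and with a minimum of 10 its log2 fold change was -0.80 after SCL (adjusted p = 0.0632) and -1.17 after ECL (adjusted p = 0.0209). With the minimum of 10, groups without overlap and lower in the lesion were found for 9.64% of genes after SCL and 12.5% after ECL. Elfn2 was at -0.00470 (adjusted p = 0.992) and -0.15 (adjusted p = 0.719).

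Of 10 RGS proteins, receptor kinases and arrestins, which end receptor signals, Rgs2, a brake on Gq, fell by 0.66 after SCL (adjusted p = 0.0272) and by 0.90 after ECL (adjusted p = 0.00683), and no other was called. With the minimum of 10 the SCL call of Rgs2 was lost (adjusted p = 0.0610). Among 5 effectors of mGluR-dependent long-term depression, Arc, the immediate early gene that removes AMPA receptors, fell by 1.95 after SCL (SE 0.180, adjusted p = 0.00014) and by 1.23 after ECL (SE 0.241, adjusted p = 0.00237). ECL minus SCL was 0.72 for Arc (adjusted p = 0.622). Of 4 genes of glutamate clearance, Glul, the astrocytic glutamine synthetase, fell after ECL by 0.70 (adjusted p = 0.0115). The astrocytic transporters were not called, Slc1a2 at -0.41 (adjusted p = 0.0783) and -0.39 (adjusted p = 0.0759) and Slc1a3 at -0.39 (adjusted p = 0.221) and -0.42 (adjusted p = 0.189). The calls in these lists stand beside 24.9% of all genes tested called after SCL and 27.8% after ECL.

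Across all 13 libraries, Pearson's r of log2(CPM + 1) was 0.838 between Grm3 and Grm5, 0.850 between Grm5 and Grm7 and 0.563 between Grm3 and Grm7. Taken as deviations from the group means it was 0.652, 0.710 and 0.154. These libraries share scaling and the group differences, and the values are descriptions. Among 11649 genes, those most like Grm5 were Atrx (r = 0.990), a chromatin remodeler, Hsp90b1 (0.988), a chaperone of the endoplasmic reticulum, and Ppp3ca (0.984), a catalytic subunit of calcineurin. Most like Grm3 were Rock1 (0.958), Spry2 (0.955) and Nlk (0.950), and most like Grm7 were Fgf2 (0.934), Rc3h2 (0.934) and Nova1 (0.925). Within groups 3 of these 9 stayed among the 3 most like their receptor, Atrx and Hsp90b1 for Grm5 and Spry2 for Grm3.

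**Figure D5:**
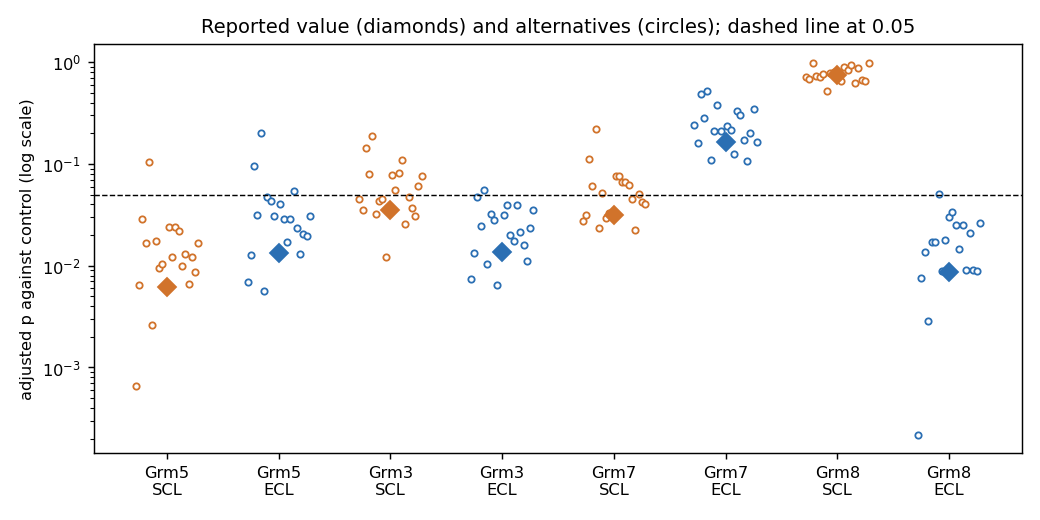
Adjusted p of Grm5, Grm3, Grm7 and Grm8 against control on a log scale, with the reported value as a diamond, each alternative processing and each left-out library as a circle, and a dashed line at 0.05. Circles of Grm5 after SCL lie below the line except 1, those of Grm3 and Grm7 after SCL lie on both sides of it, and those of Grm7 after ECL and of Grm8 after SCL all lie above it.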

How the data were processed

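Counts for 55291 gene symbols from 13 CA1 libraries were used as deposited. The authors used CUTADAPT 3.5 for trimming and RNA STAR 2.7.8a for mapping to mm10, and counted them on GENCODE M25 genes with featureCounts 2.0.1 without strand, which gave raw counts per library. Between 63.01% and 74.28% of counts from 1 to 20 were even, so both mates of a read pair seem to have been counted, and a fit of halved counts is among the alternatives. Groups came from the sample titles, and no batch or date is given. The mGluR members and the pathway and marker lists were chosen with earlier results of these data known. Each library is a separate culture.

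Each comparison was fitted on its own in edgeR 4.0.16 (R 4.3.3, quasi-likelihood, two-sided, no covariate) over genes whose mean normalized count reached 150, with TMM factors over those genes and Benjamini-Hochberg adjustment at 0.05. Members under that minimum were fitted with a minimum of 10. CPM values are scaled by TMM factors over 11649 genes. Exon lengths are from GENCODE M21. The code was tested on simulated counts. Alternatives were DESeq2 1.42.0, other scalings and filters, a single fit, replicate blocks, a sex term, a length and GC offset (mgcv 1.9.3), halved counts and leaving out each library. Besides the members, genes were named by role or, per list and comparison, as the 3 called genes with the smallest adjusted p, and Mir592 and the ratios of Grm8 were added after their values were seen. No library was left out. Some genes of the lists are counted but not reported here by name.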

Additional observations from a re-analysis of the deposited data

Results flagged for a closer look

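Of 18 sets of libraries examined (6 mGluR genes in 3 groups), 1 held a library standing apart by Dixon's criterion, which chance gives in about 1 of 20. Grm8 measured 3.09 CPM in ECL 4, the highest of the 4 ECL libraries, with a gap to the next that was 0.902 of the range, above the limit of 0.829. Without ECL 4 the log2 fold change of Grm8 after ECL was -1.44 (adjusted p = 0.0145, edgeR).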

How the results depend on the processing

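Of 344 alternative values, 310 kept their direction and their side of the threshold, 25 lost the call, 2 gained one and 7 changed sign. Only a result that was called could lose its call. Over the alternative processings, Grm3 after SCL lost its call in 4 of 11 and Grm7 after SCL in 5 of 11. Each also lost it in 5 of 9 fits without a library. Grm5 after ECL lost it in 2 of 11 and 1 of 9. Grm5 after SCL and Grm3 after ECL each lost it in 1 of 11 processings, and Grm8 after ECL in 1 of 10. For number of members called, scaling over all symbols gave 1 after SCL in place of 3 and 1 after ECL in place of 2, the minimum of 10 gave 1 after SCL, no filter gave 0 after SCL, 1 after ECL and 1 between lesions, and leaving out a library gave 1 to 3 after SCL and 1 to 2 after ECL. After SCL, Grm3 was at -0.37 with scaling over all symbols (adjusted p = 0.144), -0.49 with the minimum of 10 (0.0796), -0.37 with no filter (0.189) and -0.67 to -0.44 without a library. Grm7 after SCL was at -0.39 (adjusted p = 0.111), -0.52 (0.0614), -0.39 (0.220) and -0.70 to -0.45, and Grm5 at -0.42 with no filter (0.105). After ECL, Grm5 was at -0.32 both with scaling over all symbols (adjusted p = 0.0949) and with no filter (0.200) and at -0.58 to -0.46 without a library, Grm3 was at -0.53 with no filter (0.0560), and Grm8 was at -0.85 with the length and GC offset (0.0503). Between lesions Grm8 passed at -1.14 in DESeq2 (adjusted p = 0.00726) and at -1.12 with no filter (0.0465). The cause of these losses and gains was not tested. Signs turned only where nothing was called. After SCL these were Grm8 with the offset (0.26), Grm4 without control 3 or control 5 (-0.50 to 0.0145 over left-out libraries) and Grm2 without control 3 (-0.76 to 0.27). Between lesions they were Grm3 without ECL 1 (-0.26 to 0.0117) and Grm4 with a sex term (-0.0339). A sex term, for 6 male and 7 female cultures by the column headings, changed no call. Only SCL 4 was male among SCL cultures and only ECL 1 female among ECL cultures, so sex was unbalanced between the lesions. With that term Grm3 between lesions moved from -0.13 to -0.41 (unadjusted p = 0.0472, adjusted p = 0.509, edgeR).

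Whether equal replicate numbers in the titles pair the libraries was not settled by these values. For 12 pairs of equal number, r of their deviations ran from -0.175 to 0.549 (median 0.0254), with 4 over 0.1. For 44 pairs of unequal number it ran from -0.419 to 0.358 (median 0.00712), with 13 over 0.1. Of 12 libraries with an equal-numbered partner, 5 correlated best with an equal number. The replicate block left 2 members called after SCL and 2 after ECL. Grm7 after SCL was then at -0.62 (adjusted p = 0.0516), and Grm4 after SCL turned to 0.23. The numbers in the column headings differ from those in the titles. As a block, added after seeing the data, they left 1 member called after SCL, with Grm3 at -0.57 (adjusted p = 0.0783) and Grm7 at -0.58 (0.0756). Of the 9 genes most like Grm3, Grm5 or Grm7, 3 were still among the top 3 in deviations from group means. The fits with the minimum of 10 under each other setting were also added after seeing the data. At 2 to 157 counts per library, Grm2 and Grm4 could not show changes of the size seen in Grm5.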
